A study of Mus musculus with 20 samples.

Results

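The genes described here encode poly(A)-binding proteins and their direct partners, grouped around Paip2, in the mouse retina. Probe sets were taken when their single gene symbol was Paip1, Paip2, Paip2b, Pabpc1, Pabpc4 or Pabpn1. Paip2 was picked by its difference between dark and light adaptation in these same arrays, so its dark and light values are a description and carry no test. The other genes were named for their function. Of the 6 genes, 5 had a probe set of their own, 1 probe set each, and all 5 were among the 15057 genes tested. Pabpc4 had none: the 4 probe sets that name it also name another gene, so no value is given for it.

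The RNA came from adult C57BL/6 mice of 7 to 8 weeks that were dark adapted for 3 h, at no more than 0.4 lux, or light adapted for 6 h at 450 lux. Whole retina was measured beside 4 layers cut out by laser capture: the photoreceptor layer (nuclei with inner and outer segments), the inner nuclear, the inner plexiform and the ganglion cell layer. Each of the 10 groups has 2 arrays, 20 in all. The labels do not say whether the 2 arrays come from separate animals, and p-values therefore reflect only the spread among these arrays. In light-adapted photoreceptor layer, inner nuclear layer and whole retina, Y-linked probe sets had medians of 243.4, 231.9 and 193.1 in replicate 1. Replicate 2 had 19.9, 21.65 and 9.95, so these pairs are not repeats of the same RNA. In other groups the spread may be technical. Values are GCRMA intensities on a linear scale. Differences are in log2 units with the standard error of 1 limma fit over all 20 arrays, and p-values are two-sided and adjusted by Benjamini-Hochberg over all genes of a comparison, with a threshold of 0.05.

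The poly(A) tail of an mRNA is coated by cytoplasmic poly(A)-binding protein, PABPC1. It also holds eIF4G, a part of the cap-binding complex eIF4F, so that the mRNA's ends meet and translation is favoured. PAIP1 strengthens this bridge, while PAIP2 and PAIP2B pull PABPC1 off the tail and off eIF4G and so damp translation. PABPN1 works in the nucleus, where it sets the length of new tails. In mouse brain, PAIP2 is known as a brake on the protein synthesis that synaptic plasticity and memory need.

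Median intensities per array were 37.5 to 40.8, and replicates correlated across genes at 0.851 to 0.956. For rod and cone markers and for ganglion cell markers the dissection followed the labels. Summed over 8 rod and cone markers, photoreceptor layer arrays had 5128.5 to 5745.2 and arrays of the other 3 layers 375.3 to 1709.2, with 4173.1 to 4631.3 in whole retina. Over 7 ganglion cell markers, ganglion cell layer arrays summed to 1701.4 to 2949.2, against 347.9 to 882.3 elsewhere among the layers. Rod and cone markers were thus present at lower levels in every inner layer. Markers separated the inner nuclear from the inner plexiform layer less evenly. Bipolar markers Trpm1, Cabp5, Prkca and Pcp2 had higher means in the inner nuclear layer, and Grm6 a lower one (63.1 and 82.6). The listed amacrine markers all had lower means in the inner nuclear than in the inner plexiform layer, as Gad1 did (151.5 and 211.7). Of the 20 arrays, 5 carried signal on Y-linked probe sets, all of them light adapted: replicate 1 of the photoreceptor layer, inner nuclear layer and whole retina, and both ganglion cell layer arrays. The comparison of the inner plexiform layer with the other layers called 0.0598% of genes within dark-adapted arrays and 15.7% within light-adapted ones, so its light-adapted arrays stand apart.

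Paip2, the inhibitor that frees PABPC1 from the tail, was higher in dark-adapted than in light-adapted tissue in 4 of the 5 tissues and lower in the inner nuclear layer. In the photoreceptor layer its intensity was 245.6 and 252.4 in dark-adapted arrays, against 55.0 and 51.2 in light-adapted arrays. That is a 4.69-fold difference (2.23 ± 0.22 log2, n = 2 each). In whole retina it was 266.0 and 276.4 in the dark and 136.6 and 125.0 in the light, 2.08-fold (1.05 ± 0.22). In both tissues each dark-adapted array was above each light-adapted one.

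The inner layers had lower Paip2 values than whole retina in both states and did not all move the same way. The inner plexiform layer had 86.2 and 79.4 in the dark, against 40.1 and 44.0 in the light (0.98 ± 0.22). The ganglion cell layer had 56.2 and 63.3 in the dark, against 32.6 and 19.3 in the light (1.25 ± 0.22). These 2 layers shared the direction of the photoreceptor layer. In the inner nuclear layer, home to bipolar, amacrine, horizontal and Müller cell bodies, the order was turned round: 46.4 and 44.2 in the dark, against 79.6 and 96.4 in the light (-0.95 ± 0.22). In none of the 5 tissues did the dark and light arrays overlap. With 2 arrays a side such a separation is common, and 32% of all genes showed it for the photoreceptor, 30.2% for the inner nuclear, 41.8% for the inner plexiform and 28.8% for the ganglion cell layer, and 24.8% for whole retina.

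**Figure D1:**
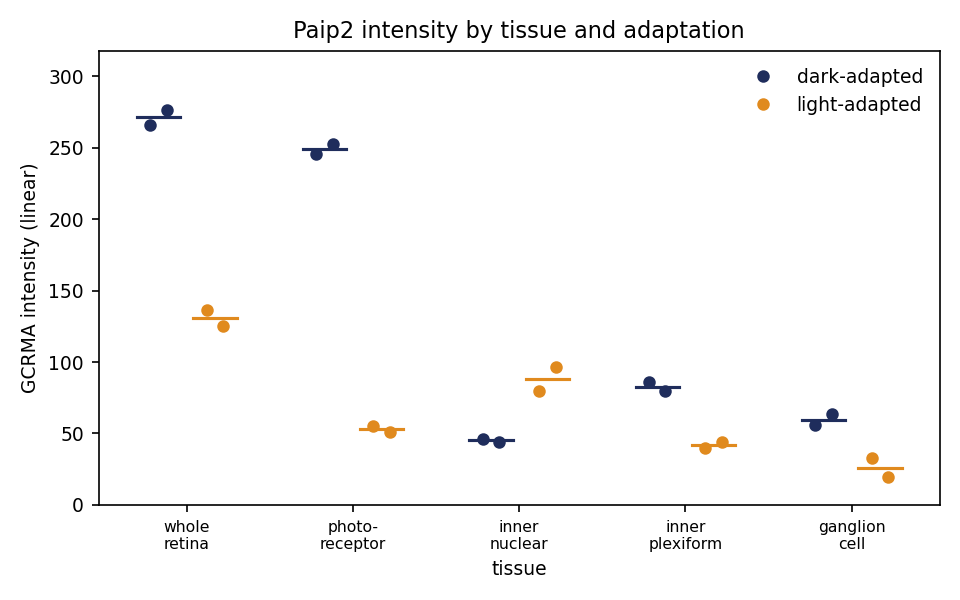
Paip2 intensity (linear GCRMA scale) in each tissue, with dark-adapted arrays in blue to the left of light-adapted arrays in orange; points are arrays and lines are means of 2. Dark-adapted photoreceptor layer arrays sit at 245.6 and 252.4, above the light-adapted ones at 55.0 and 51.2, and the inner nuclear layer alone has its dark-adapted arrays (46.4 and 44.2) under its light-adapted ones.

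Averaged over the 5 tissues, Paip2 was 0.91 ± 0.10 higher in the dark (n = 10 each), the rank 5 highest dark difference of 15057 genes. It ranked 1 in the photoreceptor layer, 8 in whole retina, 16 in the ganglion cell layer and, lower down, 460 in the inner plexiform layer. In the inner nuclear layer it stood 26th from the lowest. For scale, 0.0133% of all genes passed the threshold in the averaged comparison and 0.0465% in the photoreceptor layer. These ranks restate why Paip2 was chosen and support nothing further.

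The order of the tissues by Paip2 level therefore depended on adaptation. In the dark, whole retina was highest, followed by the photoreceptor, inner plexiform, ganglion cell and inner nuclear layers. In the light, whole retina was again highest, followed by the inner nuclear, photoreceptor, inner plexiform and ganglion cell layers. Whole retina against the mean of the 4 layers called 48.5% of all genes, and the part of sample preparation in its rank was not tested. In neither order did the arrays of neighbouring tissues overlap. The share of all genes that separate neighbouring tissues in this way is not given, so the separation is a description only. These arrays also hold the dark effect by which Paip2 was picked, and neither order was tested.

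Cell composition and array features were read beside these values. Rod and cone markers summed to 5730.1 to 5745.2 in dark-adapted and 5128.5 to 5572.9 in light-adapted photoreceptor layer arrays. In the inner nuclear layer they summed to 784 to 1397.2 in the dark and 375.3 to 406.7 in the light, so there rod and cone signal was higher in the dark while Paip2 was lower. In the inner plexiform layer the sums were 570.4 to 982.3 in the dark and 796.1 to 822.4 in the light, and in the ganglion cell layer 398.5 to 706.8 and 455.7 to 1709.2. Markers of other cells also differed. In the inner nuclear layer amacrine markers (5 of 5) summed to 411.7 to 440.3 in the dark and 443.7 to 575.9 in the light. Vascular markers (3 of 3) had 142.6 to 152.1 and 169 to 196.2. The microglia marker (1 of 3) had 98 to 107.4 and 131.9 to 143.4. Pigment epithelium markers (2 of 4) had 81.3 to 83.8 and 85.4 to 96.5. These were lower in the dark, as Paip2 was, while bipolar, horizontal, Müller and ganglion cell sums overlapped. The inner plexiform layer differed too. Müller glia markers (4 of 4 measured) summed to 774.8 to 987.4 in the dark and 306.3 to 730.8 in the light, and bipolar markers (5 of 5) to 671.3 to 776.8 in the dark and 557.1 to 619 in the light. Horizontal cell markers (3 of 3) ran the other way, at 233.8 to 250.7 in the dark and 321.5 to 353.9 in the light. In the ganglion cell layer bipolar markers summed to 384.8 to 401.3 in the dark and 312 to 332.1 in the light. Vascular markers were lower there in the dark (165.9 to 181 and 218.1 to 240), as were pigment epithelium markers (68.4 to 86.5 and 90.7 to 95.4). The other sums of that layer overlapped. In the photoreceptor layer ganglion cell markers summed to 368.5 to 386.3 in the dark and 347.9 to 361.8 in the light. The part of cell composition in the Paip2 values was not tested, and in bulk tissue fewer cells of a type and less RNA per cell cannot be told apart. Where a light-adapted tissue had 1 array of each kind, Paip2 was 55.0 with and 51.2 without Y-linked signal in the photoreceptor layer, 136.6 with and 125.0 without in whole retina, and 79.6 with and 96.4 without in the inner nuclear layer. The inner nuclear layer's gap was the widest in ratio and ran the other way. In the ganglion cell layer both light-adapted arrays had that signal, so there the signal and adaptation cannot be told apart. The Paip2 difference there was 0.87 without replicate 2 of the light-adapted arrays, which had 19.3, and 1.63 without replicate 1.

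The other 4 measured members did not pass the test for adaptation. By limma, 0 of 4 passed in each tissue and in the average, and 0 of 4 had an unadjusted p under 0.05 in any of these 6 comparisons. The background share of genes called was small as well, at 0% for the inner nuclear, 0.00664% for the ganglion cell, 0.0465% for the photoreceptor and 1.83% for the inner plexiform layer, 0.0266% for whole retina and 0.0133% for the average. An unadjusted p under 0.05 was held by 3.14%, 4.08%, 1.49%, 18.7%, 0.897% and 6.11% of all genes, in the same order. With 4 members, a count of 0 is near these shares. Averaged over tissues the differences were 0.04 ± 0.08 for Paip2b, 0.03 ± 0.20 for Paip1, 0.04 ± 0.11 for Pabpc1 and 0.07 ± 0.16 for Pabpn1 (adjusted p = 0.971 to 0.989, limma, n = 10 each). The test of whether the dark effect differed between tissues gave an adjusted p of 1 for each of these 4 genes (limma moderated F test), with 0.0266% of all genes called. A missed threshold with 2 arrays a side does not show that levels were equal. For Pabpc1 in the inner nuclear layer, for example, the arrays were 223.1 and 280.3 in the dark and 167.7 and 212.9 in the light (0.40 ± 0.24, adjusted p = 1 by limma).

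**Figure D2:**
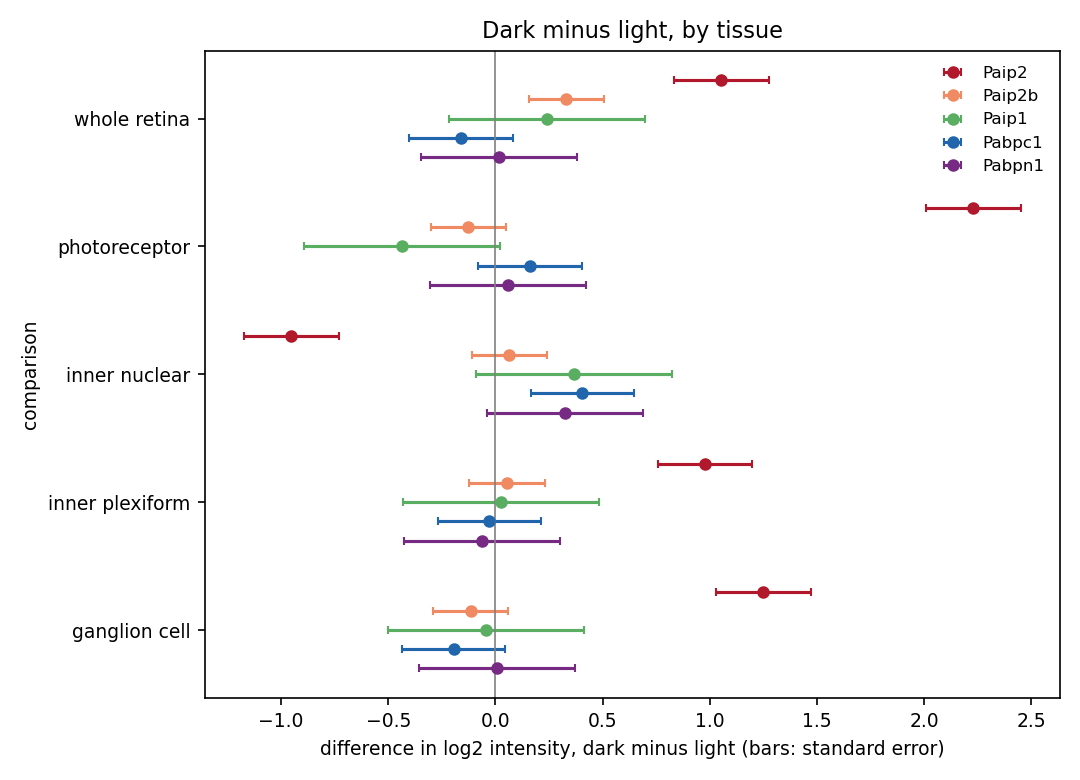
Difference in log2 intensity, dark minus light, for the 5 measured members in each tissue, with the standard error of the fit as bars (2 arrays a side). Paip2 lies at 2.23 in the photoreceptor layer and -0.95 in the inner nuclear layer, while the other members stay between -0.43 and 0.40.

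Paip2b, the paralogue of Paip2 with the same inhibitory action on PABPC1, was nearly level across the whole data set. Its intensity ran from 141.7 to 193.5 over all 20 arrays, with a median of 165, a span of 1.37-fold. Only 0.0863% of the 15057 genes had a narrower span on the log2 scale. Paip2 spanned 14.3-fold, from 19.3 to 276.4, and 98.8% of genes had a narrower span than that. By tissue the mean intensity of Paip2b was 160.3 ± 21.2 in whole retina and 172 ± 16.4 in the photoreceptor layer (SD, n = 4 each). The inner nuclear layer averaged 168 ± 16.6, the inner plexiform layer 159.8 ± 3.51 and the ganglion cell layer 162 ± 11.3. No tissue comparison called it, and the lowest adjusted p among these 5 comparisons was 0.677 (limma). Whole retina had the widest gap by adaptation, 180.4 and 176.7 in the dark against 141.7 and 142.3 in the light (0.33 ± 0.18, adjusted p = 1 by limma), and the arrays there did not overlap.

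The promoter of Paip2b is shown because this gene's level was the evenest of the members. The RefSeq table had a start-site window for Paip2b and Pabpn1 and a pair of windows for Paip1 among the measured members that can be shown. Below are the 250 bases before the start of Paip2b (GRCm38.p6, chr6:83831742-83831991, minus strand) and of Pabpn1 (chr14:54893893-54894142, plus strand), 5′ to 3′, with every CCAAT in capitals. CCAAT is the core of a common promoter element bound by the factor NF-Y.
Paip2b: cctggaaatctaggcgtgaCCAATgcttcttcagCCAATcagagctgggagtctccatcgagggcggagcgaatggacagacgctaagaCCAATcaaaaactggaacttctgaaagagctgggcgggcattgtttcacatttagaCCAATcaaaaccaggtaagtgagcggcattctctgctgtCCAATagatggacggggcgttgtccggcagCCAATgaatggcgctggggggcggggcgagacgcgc
Pabpn1: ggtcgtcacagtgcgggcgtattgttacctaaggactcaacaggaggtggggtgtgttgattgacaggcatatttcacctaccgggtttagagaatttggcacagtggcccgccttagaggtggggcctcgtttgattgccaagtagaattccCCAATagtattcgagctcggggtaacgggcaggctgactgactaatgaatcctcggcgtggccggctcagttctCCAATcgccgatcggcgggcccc

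CCAAT or its reverse complement ATTGG occurred 6 times in the Paip2b window, 2 times in that of Pabpn1 and 0 times in both windows of Paip1. At least 1 copy was present in 33.8% of the 32851 mouse windows searched, and 5 or more copies in 70 of them (0.213%). The GC-rich motif GGGCGG (reverse CCGCCC) occurred 3 times in the Paip2b window and 0 times in that of Pabpn1. The Paip1 windows held 1 and 4 copies. It was found in 32.7% of all windows. Neither TATAAA nor TAATCC, the core of the photoreceptor factor CRX's motif, was found on either strand in any of these windows. TATAAA was present in 12.4% and TAATCC in 6.25% of all windows, so most windows lack them. The motifs are letters in a sequence and were not measured as bound sites.

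Paip1, which promotes translation through PABPC1, had its highest values in whole retina, where its intensity was 45.6 and 54.4 in the dark and 34.8 and 51.0 in the light. In the photoreceptor layer it was 19.7 and 19.7 in the dark and 25.6 and 27.7 in the light, and in the 12 other layer arrays it ran from 4.5 to 18.7. Every whole retina array was thus above every layer array, which held for 5.33% of all genes. Every photoreceptor layer array was above all 12 of the other layers, which held for 3.49%. The order was whole retina, photoreceptor layer and then the 3 inner layers, which overlapped one another. Paip1 passed the filter on dim probe sets through its whole retina arrays, so that its difference there was built into its selection and carries no test. It was 1.81 ± 0.26 higher in whole retina than in the mean of the 4 layers (n = 4 against 16), or 1.10 with log2 of the value plus 16.

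Paip1 was also 1.09 ± 0.26 higher in the photoreceptor layer than in the mean of the other 3 layers, 2.12-fold (adjusted p = 0.0112, limma, n = 4 against 12). The size depends on how low values are treated: 4 inner layer arrays lay under the floor of 8, and with log2 of the value plus 16 the difference was 0.57 (adjusted p = 0.0141, limma). The call was lost when replicate 2 of the light-adapted group was left out (adjusted p = 0.0629, limma). It was also lost without replicate 1 or 2 of the dark-adapted photoreceptor layer (0.0516 and 0.0553) and without the arrays with Y-linked signal (0.068), with differences of 1.06 to 1.09. Within the dark-adapted arrays alone the difference was 0.81 ± 0.37 (adjusted p = 0.294, limma), and within the light-adapted ones 1.36 ± 0.37 (0.0463). These comparisons called 4.64% and 4.7% of all genes. Against single layers, the photoreceptor layer passed the test over the inner plexiform layer (1.11 ± 0.32, adjusted p = 0.0224 by limma) and missed it over the inner nuclear (0.0628) and ganglion cell layers (0.0568). Of all genes, comparisons of the photoreceptor layer with 1 other tissue called 21.4% (inner plexiform), 5.33% (inner nuclear), 7.66% (ganglion cell) and 10.4% (whole retina). Pairs of inner layers called 4.85% (inner nuclear and inner plexiform), 0.458% (inner nuclear and ganglion cell) and 3.1% (inner plexiform and ganglion cell), and whole retina against each of these layers 34.6% (inner nuclear), 49.7% (inner plexiform) and 34.3% (ganglion cell).

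Pabpc1, the main cytoplasmic poly(A)-binding protein, had its highest level in the photoreceptor layer. Intensities there were 636.5 and 552.5 in the dark and 533.9 and 526.9 in the light. The other 3 layers ran from 167.7 to 383.2 over 12 arrays, and whole retina had 355.4 and 444.7 in the dark and 424.5 and 465.4 in the light. No array of another tissue reached the photoreceptor layer's lowest, a separation whose share over all genes is not given. The difference from the other 3 layers was 1.13 ± 0.14, or 2.19-fold (adjusted p = 2.92e-05, limma, n = 4 against 12), and it passed in all 34 alternatives. It was 1.18 ± 0.20 within the dark-adapted and 1.08 ± 0.20 within the light-adapted arrays. In 3.49% of all genes the photoreceptor layer arrays all lay above those of the other 3 layers.

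By Pabpc1 level, the photoreceptor layer came first, then whole retina and the ganglion cell, inner plexiform and inner nuclear layers. The first pair of neighbours missed the threshold (0.42 ± 0.17, adjusted p = 0.115 by limma). Whole retina was above the ganglion cell layer, the fit's ganglion cell minus whole retina difference being -0.56 ± 0.17 (adjusted p = 0.02, limma). The 3 inner layers did not differ from one another past the threshold. Pabpc1 was lower in the inner nuclear layer than in the other layers, whose mean includes the photoreceptor layer (-0.69 ± 0.14, adjusted p = 0.0315, limma, n = 4 against 12). This call was lost in 16 of 34 alternatives, including the fits without any 1 array of the inner nuclear or the photoreceptor layer and without 1 dark-adapted ganglion cell layer array, replicate 2 (adjusted p = 0.0514 to 0.204, limma). In that comparison 0.611% of genes were called, 0.359% as lower.

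Paip2 differed between layers in ways that depended on adaptation, and since these arrays hold the dark effect by which it was picked, its layer differences are given with no test. In the photoreceptor layer it was higher than in the mean of the other 3 layers by 2.04 within dark-adapted arrays and by 0.23 within light-adapted ones, 1.13 ± 0.13 on average (n = 4 against 12). In the ganglion cell layer it was -0.71 in the dark and -1.21 in the light, -0.96 ± 0.13 on average. In the inner nuclear layer the average of -0.02 ± 0.13 was made up of -1.24 in the dark and 1.20 in the light. Whole retina stood above the mean of the 4 layers by 1.65 in the dark and 1.47 in the light. Whole retina and the ganglion cell layer thus kept their direction in both states, while the inner nuclear layer did not.

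Pabpn1, the nuclear protein that controls tail length, did not follow the photoreceptor layer. Its intensity was 171.8 and 194.8 in dark-adapted and 207.8 and 148.9 in light-adapted photoreceptor layer arrays, and 104.6 to 352.4 in the other 3 layers. The difference was -0.09 ± 0.21 (adjusted p = 0.825, limma). The highest of these layer arrays, 352.4, was replicate 2 of the dark-adapted inner nuclear layer, whose other replicate had 171.3. Whole retina had 372.3 and 297.5 in the dark and 281.7 and 384.4 in the light, 0.81 ± 0.20 above the mean of the layers (adjusted p = 0.00432, limma). By level the tissues ran whole retina, inner nuclear, ganglion cell, photoreceptor and inner plexiform layer, and no pair of neighbours in that order passed the test (adjusted p = 0.081 to 0.986, limma).

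**Figure D3:**
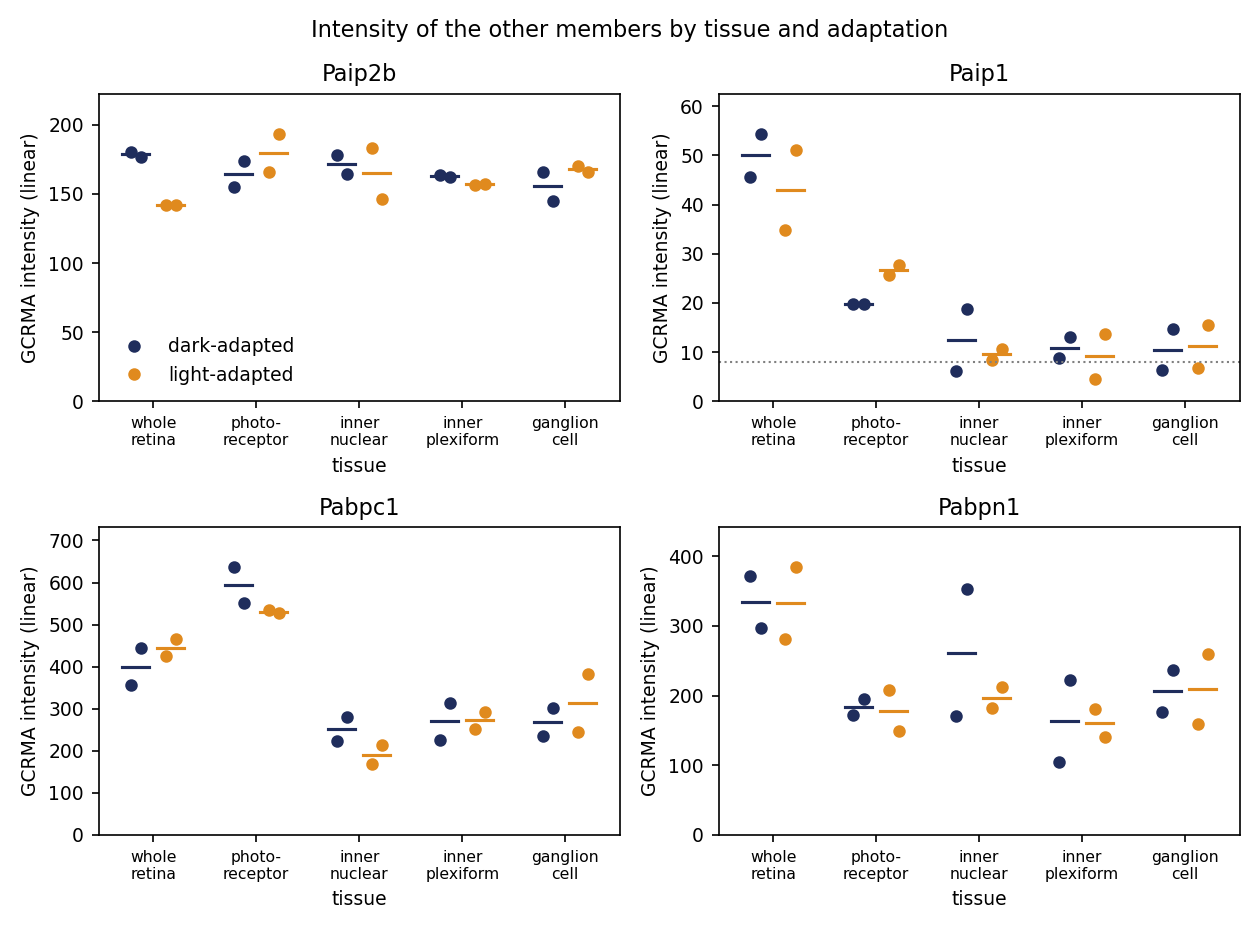
Intensity (linear GCRMA scale) of Paip2b, Paip1, Pabpc1 and Pabpn1 in each tissue, dark-adapted arrays (blue) left of light-adapted ones (orange); points are arrays, lines are means of 2, and the dotted line in the Paip1 panel is the floor of 8. Paip2b stays between 141.7 and 193.5 throughout, and the 4 photoreceptor layer arrays of Pabpc1 (526.9 to 636.5) lie above every other array.

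In counts that leave out Paip2, 2 of 4 members were higher in the photoreceptor layer and 0 lower, in a comparison that called 12.9% of all genes, 7.26% as higher and 5.69% as lower. Their median difference was 0.58, against -0.06 over all genes tested. In the inner nuclear layer 1 of 4 was lower. Neither the ganglion cell nor the inner plexiform layer comparison called any (0 of 4 by limma, 0 with an unadjusted p under 0.05). Such an unadjusted p was held by 10.8% of all genes in the ganglion cell and 29.8% in the inner plexiform layer comparison. The inner plexiform layer comparison called 13.6% of all genes, and the ganglion cell layer comparison 1.87%, with 0.704% as lower, and 0.438% within dark-adapted arrays. In whole retina, leaving out Paip1 too, 2 of 3 were higher, but that comparison called 48.5% of all genes, 19.9% as higher and 28.6% as lower, and its median over all genes was -0.18. Within dark-adapted arrays Pabpc1 (0.31, adjusted p = 0.249, limma) and Pabpn1 (0.78, 0.0694) missed the threshold in whole retina, where 16.5% of all genes were called. Within light-adapted arrays both passed (0.0354 and 0.0348), where 31.1% were called. The whole retina difference of Pabpc1 was 0.43 ± 0.13 over all arrays (adjusted p = 0.0148, limma). It missed the threshold with quantile normalisation (0.34, adjusted p = 0.0504), and without replicate 2 of the light-adapted (0.40, 0.0778) or dark-adapted whole retina arrays (0.35, 0.0986).

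**Figure D4:**
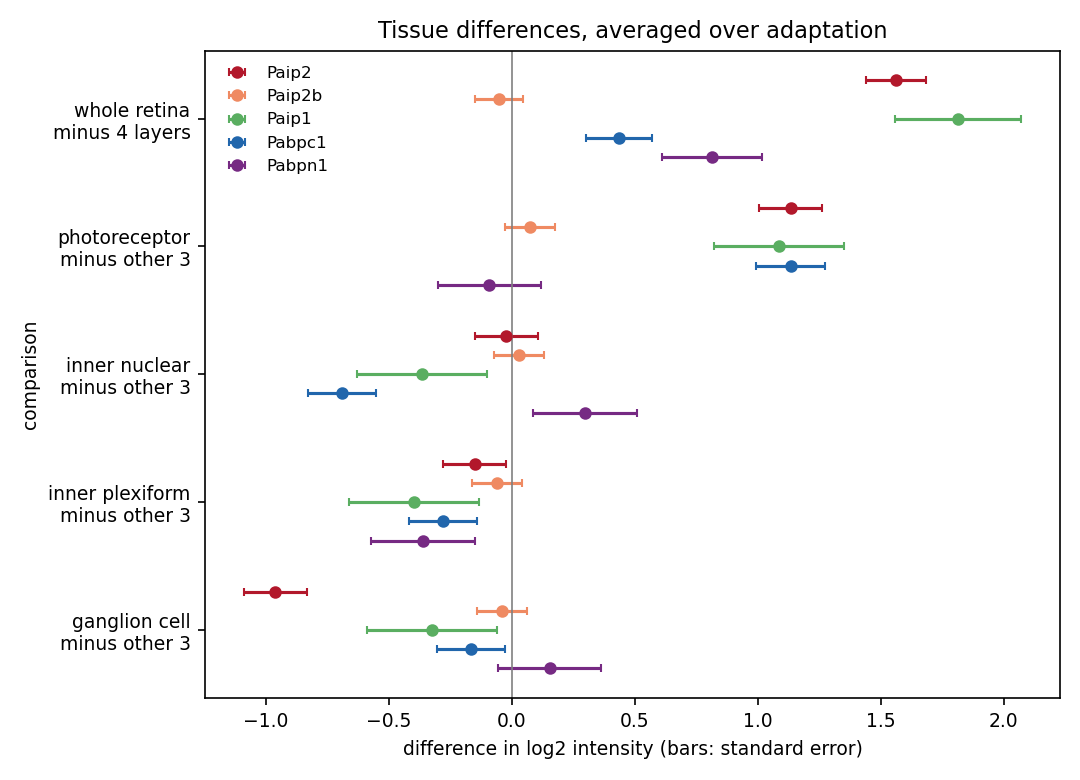
Differences in log2 intensity with standard errors for whole retina against the mean of the 4 layers (n = 4 against 16) and for each layer against the mean of the other 3 (n = 4 against 12), averaged over adaptation. Paip2, Paip1 and Pabpc1 lie at 1.09 to 1.13 in the photoreceptor layer, where Paip2b (0.07) and Pabpn1 (-0.09) lie near 0.

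The wider machinery was read from 6 lists with 85 measured genes beyond the members. In the photoreceptor layer 16 of the 85 were higher and 2 lower, 21.2% called against 12.9% of all genes, with a median difference of 0.17. Of 10 eIF3 subunits, the initiation complex that PAIP1 contacts, 3 were higher and 0 lower (median 0.56): Eif3f by 0.93 ± 0.19, Eif3e by 1.95 ± 0.39 and Eif3h by 0.96 ± 0.25. The deadenylase list, enzymes and cofactors that shorten the tail, had 4 of 19 higher and 1 lower (median 0.19). Among them Cnot6, a catalytic subunit of the CCR4-NOT deadenylase, was higher by 2.93 ± 0.29 (adjusted p = 2.85e-06, limma), with 200.9 to 271.8 in the 4 photoreceptor layer arrays and 17.2 to 110.4 in the 12 others. Its scaffold Cnot1 was higher by 0.74 ± 0.16 and Cnot6l by 1.22 ± 0.27. Noct, which encodes the circadian protein nocturnin, was lower by -0.55 ± 0.13.

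Of 17 proteins that dock on PABPC1 through a PAM2 motif or its partner domain, 4 were higher in the photoreceptor layer and 0 lower (median 0.19). These were the release factor gene Gspt1 (1.59 ± 0.35), the microRNA-silencing scaffold Tnrc6b (0.45 ± 0.12), the deadenylase adaptor Tob1 (0.55 ± 0.15) and Mkrn1 (0.55 ± 0.17). In the list of the cap-binding complex and its regulators 3 of 14 were higher (median 0.16). These were Eif4g2 by 1.43 ± 0.28, the helicase gene Eif4a1 by 0.53 ± 0.15 and its cofactor Eif4b by 0.35 ± 0.11. Of 22 other poly(A)-binding and nuclear polyadenylation genes 2 were higher (median 0.01), the cleavage factors Pcf11 (1.46 ± 0.26) and Wdr33 (0.55 ± 0.17). In this comparison 7.26% of all genes were called higher, to which 2 of 22 is close, and 5.69% lower. Among 4 genes for proteases, ligases and kinases that act on PAIP1 or PAIP2, Capns1, the small calpain subunit, was lower in the photoreceptor layer (-0.76 ± 0.16). Capns1 was higher in the ganglion cell layer (1.21 ± 0.16), where 1.87% of all genes were called.

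With adaptation, 1 of the 85 genes was called in any tissue. Noct was lower in the dark in the inner plexiform layer, with 93.2 and 97.2 in dark-adapted arrays against 138.5 and 238.9 in light-adapted ones (-0.93 ± 0.22, adjusted p = 0.0424, limma, n = 2 each). The light-adapted arrays of this layer are those that stand apart, and their part in the Noct call was not tested. In that tissue 1.18% of the 85 and 1.83% of all genes were called. In the average over tissues 0 of 85 were called by limma and 3 had an unadjusted p under 0.05 (3.53%, against 6.11% of all genes).

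Across the 20 arrays Paip2 correlated with Paip1 at r = 0.58, with Pabpc1 at 0.43, with Pabpn1 at 0.30 and with Paip2b at -0.04. Paip1 and Pabpc1 correlated at 0.75. The genes whose pattern was most like that of Paip2 over the 20 arrays were Frmpd1 (r = 0.82), Pip5k1a (0.81), Apex2 (0.81), Lpin2 (0.80) and Lrit2 (0.79). Frmpd1, a scaffold protein with FERM and PDZ domains, had a dark minus light difference of 0.93 in the photoreceptor layer and 0.71 in the inner nuclear layer. It therefore lacked the turned direction that Paip2 had there. Lpin2, a phosphatidate phosphatase, had 0.85 in the photoreceptor layer and -0.34 in the inner nuclear layer. Pip5k1a, a lipid kinase that makes phosphatidylinositol bisphosphate, had 0.28 and -0.48 in these layers. The most opposite patterns were those of Camk2n2 (-0.81), Thop1 (-0.81) and Cuedc2 (-0.79). These correlations describe arrays that share tissues and adaptation states and were not tested.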

How the data were processed

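The authors deposited a GCRMA intensity for each probe set of each array, computed per the submitters' processing notes (version not given), from cRNA labelled by Affymetrix's double-amplification protocol, per the labels. GCRMA corrects for background and normalises between arrays; an overall shift of RNA content would not be seen. The linear scale was read from the values (medians of 37.5 to 40.8). Of 35557 probe sets, 21789 had 1 gene symbol, 1621 several and 12147 were not listed. A floor of 8 was applied before log2; 11.3% to 14.1% of an array's values lay under it. Probe sets over a log2 value of 5 in at least 2 arrays were kept, and each of 15057 genes was represented by its brightest. A limma fit (3.58.1, R 4.3.3) with a mean per group and an intensity trend, tested on simulated data, gave all comparisons. The number of arrays limits the precision, and cross-hybridisation between family members was not examined.

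Members, lists and tests were chosen with earlier results of these data known. Named genes are the members, up to 4 called genes of each list by smallest adjusted p, and the genes most and least correlated with Paip2. Values within dark- or light-adapted arrays were added after seeing the data. Alternatives were quantile normalisation, median centring, other filters, averaged probe sets per gene, no trend, array weights, log2 of the value plus 16, fewer arrays and a replicate block.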

Additional observations from a re-analysis of the deposited data

Results flagged for a closer look

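Paip2 differed in direction between tissues: dark minus light was 2.23 in the photoreceptor layer, 0.98 in the inner plexiform layer, 1.25 in the ganglion cell layer and 1.05 in whole retina, but -0.95 in the inner nuclear layer. Both dark-adapted arrays lay above both light-adapted ones in the first 4 and below them in the last. The difference between tissues was not tested, since Paip2 was chosen by its dark effect. Paip2b also had non-overlapping arrays in opposite directions, at 0.05 in the inner plexiform layer and 0.33 in whole retina against -0.12 in the ganglion cell layer, all within 2 standard errors of 0; the F test for Paip2b gave an adjusted p of 1 (limma).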

How the results depend on the processing

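The 6 Paip2 dark differences kept their sign under every alternative run. With log2 of the value plus 16 they shrank to 1.94 in the photoreceptor layer and 0.87 in the ganglion cell layer, as a larger pseudocount does to low values. Leaving out 1 array at a time gave 2.18 to 2.28 in the photoreceptor layer, -1.09 to -0.81 in the inner nuclear layer and 0.87 to 1.63 in the ganglion cell layer. The 1 member lower in the inner nuclear layer, Pabpc1, became 0 with no filter, no intensity trend, only the arrays of the comparison, without the Y-signal arrays, and without the inner plexiform layer's light-adapted arrays; leaving out 1 array at a time gave 0 to 1. The ganglion cell layer difference of Paip2, given with no test, was -0.71 within dark-adapted arrays. It was -0.35 without the Y-signal arrays, where a dark-only layer is set against dark and light arrays. In whole retina, Pabpc1 and Pabpn1 missed the threshold within dark-adapted arrays (adjusted p = 0.249 and 0.0694, limma), where 16.5% of all genes were called. The inner nuclear layer difference of Paip2 reversed to 1.20, a value that shares its arrays with the dark effect, within light-adapted arrays. The cause of these changes was not tested. Leaving out Paip2, and Paip1 in whole retina, no member's call changed with the replicate number as a block (replicate block). That is 2 of 4 members higher in the photoreceptor layer and 2 of 3 in whole retina. Without the block, these comparisons called 7.26% and 19.9% of all genes as higher. Same-numbered arrays of different groups had deviations correlated at 0.01 to 0.48 over 45 pairs, 32 of them over 0.1, so the number is not taken as a pairing. Dark against light could not be run in the ganglion cell layer without the Y-signal arrays, nor in the inner plexiform layer without its light-adapted arrays, and the average then covers the other 4 tissues.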
